A study of Ovis aries with 24 samples.

Results

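The AP-1 genes encode transcription factors of the basic leucine zipper class that bind DNA as dimers. The members sought were FOS, FOSB, FOSL1, FOSL2, JUN, JUNB, JUND and ATF3, taken as the rows of the count tables that carry exactly these gene names. Of the 8 names, 7 had a row among 27054 features, and JUND was not analysed here because no row carries that name. FOS proteins need a JUN or ATF partner, whereas JUN proteins can also pair with each other. Several members, FOS, FOSB, JUN and ATF3 among them, are immediate-early genes, transcribed soon after a stimulus or a stress without new protein synthesis. In mouse gonadotrope cells, gonadotropin-releasing hormone induces Fos and Jun, and AP-1 sites lie in the promoters of Gnrhr and Fshb.

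The 24 libraries came from primary pituitary cultures of ovariectomized Western white faced ewes. After dispersal and 24 hours of culture, the cells received an adenovirus whose promoter directs green fluorescent protein to gonadotropes, the cells that make luteinizing and follicle-stimulating hormone. The promoter is not named in the labels. After 3 further days the cultures were given 10 nM estradiol (E2) or the ethanol vehicle for 6 hours, and gonadotropes were collected by fluorescence-activated sorting. The 4 groups of 6 libraries were sorted E2, sorted vehicle, unsorted E2 and unsorted vehicle. All groups therefore shared the ovariectomy, the culture and, per the labels' protocol, the virus. The labels do not say whether the unsorted cells also passed through the sorter. They also do not say that replicate numbers stand for separate ewes or cultures, so the p-values measure only the spread between these libraries.

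Depth fell into 2 sets, with 4.19 to 6.19 M counted reads in the 12 libraries of replicates 1 to 3 and 19.2 to 37.0 M in the 12 of replicates 4 to 6. Every group held 3 libraries of each depth. The labels name no batch, and the depth sets are followed below as possible ones, with every fold change within a set taken from a fit with the replicate number as a block. The sorted libraries carried more gonadotrope marker reads: the 8 markers with a row, of 10 listed, summed to 2810 to 5568 CPM (counts scaled to the library total) with E2 and 2707 to 5987 CPM with vehicle. The sums were 412 to 1701 CPM in unsorted E2 and 431 to 1543 CPM in unsorted vehicle libraries. Markers of other cell types remained in the sorted libraries and none was at 0 in any group. The 11 fibroblast and pericyte markers summed to 992 to 2448 CPM in sorted E2 and 963 to 1979 CPM in sorted vehicle libraries, against 6484 to 12939 CPM in unsorted E2 and 5701 to 13530 CPM in unsorted vehicle libraries. Markers of other hormone-producing cells summed to 67388 to 187251 CPM in sorted E2 and 77514 to 207066 CPM in sorted vehicle libraries, against 47055 to 138968 CPM in unsorted E2 and 45069 to 116551 CPM in unsorted vehicle libraries. In such bulk samples, fewer cells of a type and less RNA per cell cannot be told apart.

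The FOS-class genes split into opposite patterns between sorted gonadotropes and the unsorted cultures. Under vehicle, FOS and FOSB rose about 17-fold in sorted cells, whereas FOSL1 and FOSL2 fell. JUN and ATF3 rose by about 0.6 to 0.7 on the log2 scale. Levels below are CPM, which are not scaled to gene length, so they are compared between groups and not between genes. Folds and log2 fold changes are fitted by edgeR's quasi-likelihood test with Benjamini-Hochberg adjustment over all genes tested, and a gene is called at an adjusted p under 0.05. Where no block is named, the fit leaves out the replicate number. Yet same-numbered E2 and vehicle libraries were alike. Their deviations from group means correlated at 0.661 to 0.859 in sorted and at 0.570 to 0.837 in unsorted cells. The fit without the block counts this shared variation as error, and the blocked fit does not.

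FOS (ENSOARG00000001783), the founding partner of JUN in AP-1, had a lowest, median and highest level of 288, 367 and 563 CPM in sorted vehicle libraries. In unsorted vehicle libraries these were 14.9, 24.6 and 27.9 CPM. Every sorted library lay far above every unsorted one. The fitted log2 fold change was 4.12 ± 0.22 (SE, n = 6 per group; edgeR adjusted p = 1.9e-08), or 17.4-fold. The differences of the 6 same-numbered pairs ran from 3.44 to 4.89.

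FOSB (ENSOARG00000009983), the closest relative of FOS and likewise immediate-early, stood at 23.5, 39.4 and 67 CPM in sorted vehicle libraries (lowest, median, highest). In unsorted vehicle libraries it stood at 0.535, 2.15 and 4.31 CPM, resting on 3 to 142 reads per library and on 3 to 9 reads in replicates 1 to 3. The groups did not overlap. FOSB rose by 4.07 ± 0.38 (edgeR adjusted p = 1.4e-06), or 16.8-fold. The size of the FOSB difference varied between the depth sets: it was 5.20 ± 0.30 within replicates 1 to 3 and 3.61 ± 0.27 within replicates 4 to 6. By pair it was 4.17, 4.39 and 6.68 in replicates 1 to 3 and 3.21, 3.15 and 4.37 in replicates 4 to 6. In replicate 3, the widest pair, the unsorted library held 3 FOSB reads.

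FOSL1 (ENSOARG00000000072), which encodes FRA1, went the other way. It had 6.20, 7.26 and 8.01 CPM in sorted vehicle libraries and 15.3, 18.2 and 26.6 CPM in unsorted vehicle libraries (lowest, median, highest). Again the groups did not overlap, here with the sorted libraries below. FOSL1 fell by 1.45 ± 0.15 on the log2 scale (edgeR adjusted p = 3.4e-06). FOSL2 (ENSOARG00000019483), which encodes FRA2, stood at 19.1, 26 and 49.0 CPM in sorted vehicle and 35.5, 56.9 and 69.8 CPM in unsorted vehicle libraries. These ranges overlapped, but FOSL2 was lower in sorted cells in all 6 same-numbered pairs, and it fell by 0.89 ± 0.21 (edgeR adjusted p = 0.0032).

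JUN (ENSOARG00000009999), the prototype partner of the FOS proteins, had 93.5, 138 and 158 CPM in sorted vehicle libraries and 66.8, 84.1 and 93.2 CPM in unsorted vehicle libraries. The lowest sorted library lay just above the highest unsorted one, so the groups did not overlap. JUN rose by 0.68 ± 0.13 (edgeR adjusted p = 0.00062). ATF3 (ENSOARG00000010493), a stress-induced factor that can repress transcription, had 23.8, 43.4 and 47.2 CPM in sorted vehicle and 17.9, 28.2 and 31.9 CPM in unsorted vehicle libraries. Its groups overlapped through 1 low sorted library, and it rose by 0.62 ± 0.19 (edgeR adjusted p = 0.016).

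JUNB (ENSOARG00000010854), a weaker activator than JUN, had 35.2, 59.8 and 100.5 CPM in sorted vehicle libraries and 20.5, 39.5 and 71.6 CPM in unsorted vehicle libraries. The groups overlapped widely. Its log2 fold change of 0.60 ± 0.35 did not pass the test (edgeR adjusted p = 0.17). With the replicate number as a block it was 0.65 ± 0.12 (edgeR adjusted p = 0.001), and sorted cells were higher in all 6 pairs.

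**Figure D1:**
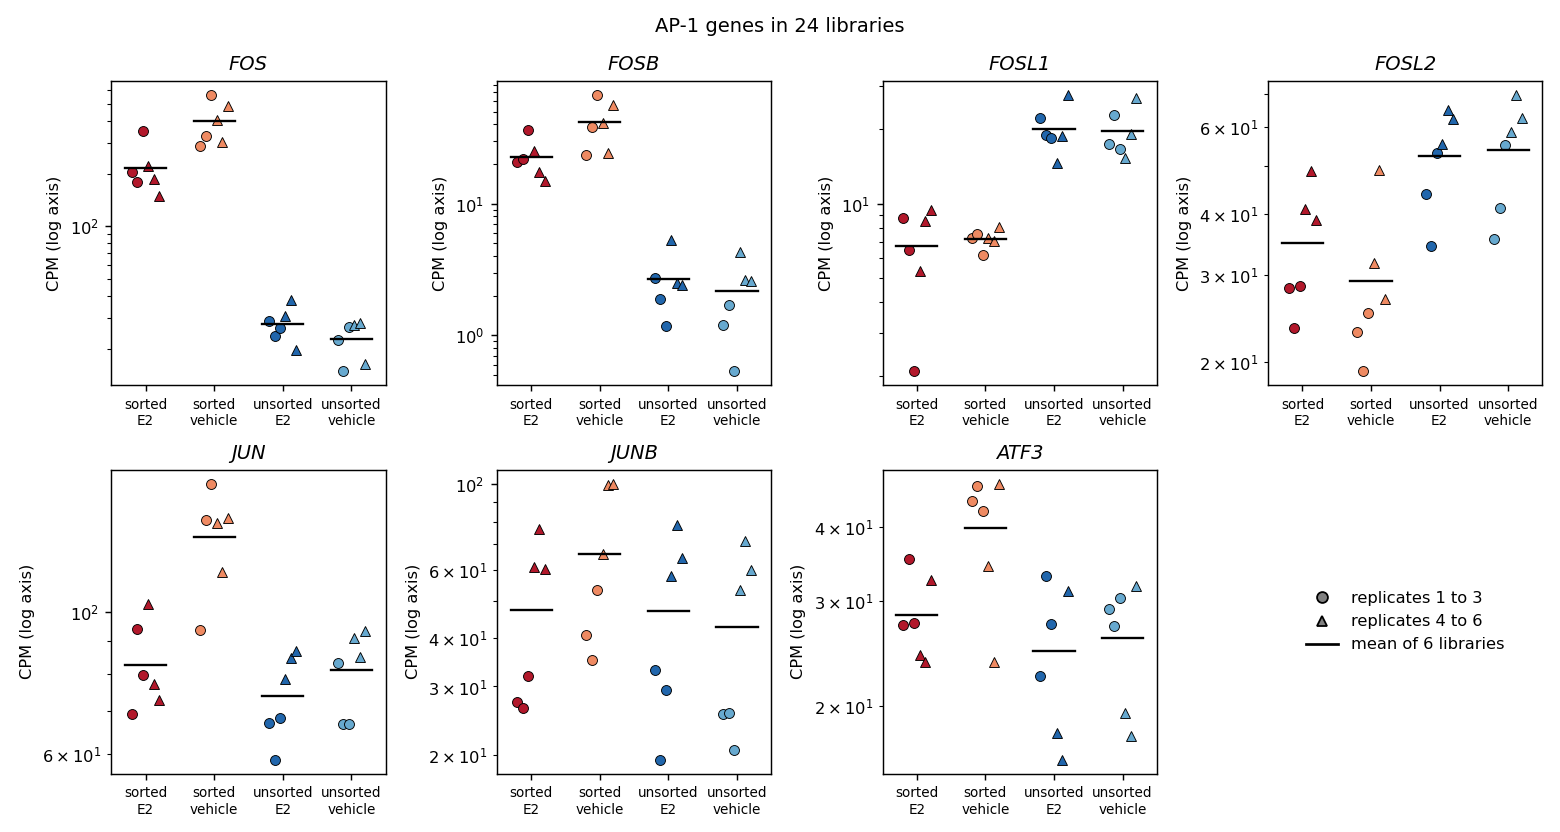
Level of each AP-1 gene in every library, in CPM on log axes, for sorted E2, sorted vehicle, unsorted E2 and unsorted vehicle cells; circles are replicates 1 to 3, triangles replicates 4 to 6 and bars the mean of 6 libraries. FOS and FOSB lie higher in all sorted libraries, FOSL1 lies lower, and JUNB and FOSL2 separate by replicate set within each group.

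In all, 6 of the 7 genes were called between sorted and unsorted vehicle libraries, 4 higher and 2 lower, where 50.2% of the genes tested were called (24.4% higher and 25.8% lower). With the block all 7 were called, against 63.6% of genes. A share near 1 in 2 of all genes makes a call here common. Of the 7, the vehicle groups of 4 genes did not overlap, FOS, FOSB and JUN higher and FOSL1 lower, where 11.9% of genes were apart and higher and 15.8% apart and lower. The median log2 fold change was 0.62 over the 7 genes and 0.02 over all genes tested. The 6 calls were kept in all 20 alternative analyses. Cell type markers moved in the same contrast: 6 of 7 tested gonadotrope markers and 6 of 9 of other hormone cells were higher in sorted cells, with none lower. Lower were 7 of 10 fibroblast and pericyte markers (1 higher), 6 of 8 folliculostellate and stem cell markers (2 higher), 6 of 8 endothelial markers (0 higher) and 3 of 6 immune markers (1 higher). Their part in the AP-1 differences was not tested.

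Under E2, the same contrast kept the split of the FOS-class genes, while JUN and ATF3 no longer passed the test. FOS stood at 149, 194 and 352 CPM in sorted E2 and 19.7, 27.5 and 37.7 CPM in unsorted E2 libraries (lowest, median, highest). The groups did not overlap, and FOS rose by 2.94 ± 0.22 (edgeR adjusted p = 5.2e-07), or 7.65-fold. FOSB had 15.0, 21.2 and 35.9 CPM in sorted E2 libraries and 1.17, 2.47 and 5.26 CPM in unsorted E2 libraries. It too was apart and rose by 2.99 ± 0.31 (edgeR adjusted p = 6e-06).

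FOSL1 had 2.10, 7.48 and 9.42 CPM in sorted E2 libraries, from as few as 9 reads, and 14.6, 18.8 and 27.5 CPM in unsorted E2 libraries. All sorted values lay below all unsorted ones, and FOSL1 fell by 1.55 ± 0.27 (edgeR adjusted p = 3e-04). FOSL2 had 23.4, 33.7 and 48.9 CPM in sorted E2 and 34.5, 54.4 and 65.1 CPM in unsorted E2 libraries and fell by 0.59 ± 0.19 (edgeR adjusted p = 0.018). JUN and JUNB did not pass the test under E2: their log2 differences were 0.15 ± 0.12 (edgeR adjusted p = 0.34) and -0.00 ± 0.35 (edgeR adjusted p = 0.99). With the block, JUN differed by 0.14 over all 6 replicates, by 0.33 within the shallow replicates 1 to 3 (edgeR adjusted p = 0.036) and by -0.04 within replicates 4 to 6. ATF3 differed by 0.20 ± 0.18 (edgeR adjusted p = 0.38), and with the block by 0.24 ± 0.09 (edgeR adjusted p = 0.044) with sorted cells higher in all 6 pairs. Called in this contrast were 4 of 7 genes, 2 higher and 2 lower, where 51.8% of genes tested were called (25.8% higher and 26% lower). With the block 5 of 7 were called, against 65.7% of genes. The groups of FOS and FOSB were apart and higher and those of FOSL1 apart and lower, where 13.1% and 15.6% of genes were.

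With these opposite patterns, the balance of FOS and FOSL1 reads inside a library differed between sorted and unsorted cells. The ratio of FOS to FOSL1 reads is a description with no test, in which gene length cancels only when groups are compared. Its lowest, median and highest values were 15.8, 25.4 and 168 in sorted E2 libraries and 39.5, 49.9 and 90.8 in sorted vehicle libraries. In unsorted E2 libraries they were 0.715, 1.36 and 2.11, and in unsorted vehicle libraries 0.616, 1.38 and 1.78. No unsorted library reached any sorted one. The highest sorted E2 ratio belonged to replicate 3, in which FOSL1 had 9 reads.

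The ratio of FOS to JUN reads had a median of 2.27 in sorted E2 libraries (1.90 to 4.42) and of 3.02 in sorted vehicle libraries (2.36 to 3.55). It was 0.395 in unsorted E2 libraries (0.226 to 0.446) and 0.285 in unsorted vehicle libraries (0.176 to 0.400). Sorted and unsorted libraries did not overlap. The ratio of FOSL1 to JUN reads ran the other way, with medians of 0.0894 in sorted E2, 0.0557 in sorted vehicle, 0.293 in unsorted E2 and 0.236 in unsorted vehicle libraries.

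**Figure D2:**
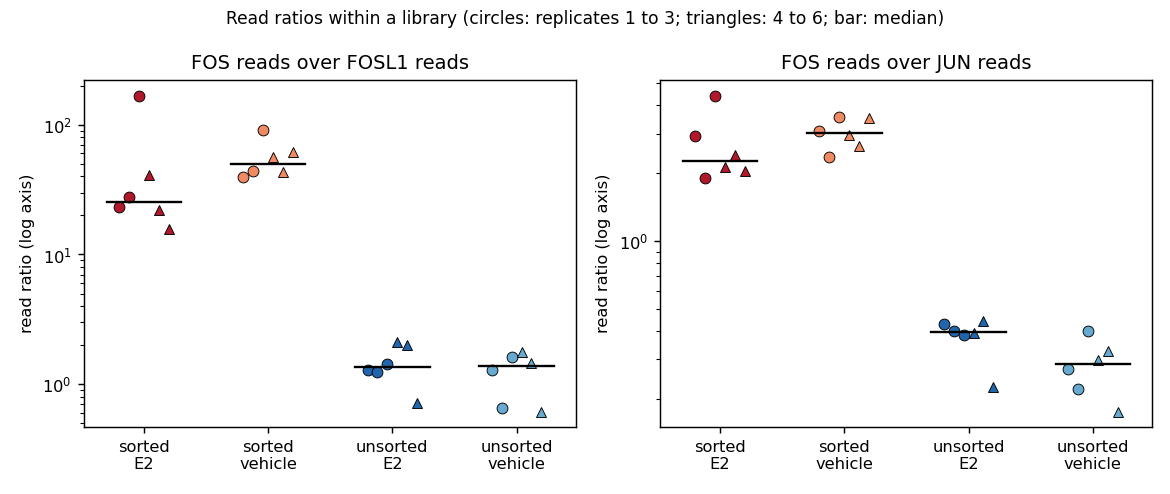
Reads of FOS over reads of FOSL1 (left) and over reads of JUN (right) within each library, on log axes, for sorted E2, sorted vehicle, unsorted E2 and unsorted vehicle cells; circles are replicates 1 to 3, triangles replicates 4 to 6 and bars medians. All sorted libraries lie above all unsorted libraries, with median FOS to FOSL1 ratios of 25.4 and 49.9 against 1.36 and 1.38.

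In sorted gonadotropes, 6 h of E2 went with lower JUN. JUN had a lowest, median and highest level of 69.2, 78.4 and 102.6 CPM in sorted E2 libraries and 93.5, 138 and 158 CPM in sorted vehicle libraries. The ranges overlapped, but E2 was lower in all 6 same-numbered pairs, with log2 differences from -0.99 to -0.42. JUN fell by 0.66 ± 0.13 (edgeR adjusted p = 0.026), and with the block by 0.65 ± 0.07 (edgeR adjusted p = 5.4e-05). Without the block the call was lost in 8 of 12 fits that left out 1 library, with an adjusted p of up to 0.075. Those libraries were sorted E2 replicates 1, 3, 5 and 6 and sorted vehicle replicates 2, 3, 4 and 6. With the block it was kept when any replicate number was left out. The difference was -0.66 within replicates 1 to 3 and -0.65 within replicates 4 to 6. JUN averaged 82.6 ± 13 CPM in sorted E2 and 131 ± 22.7 CPM in sorted vehicle libraries (SD, n = 6 each).

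FOS and FOSB had larger differences and a wider spread. FOS averaged 215 ± 71.4 CPM in sorted E2 and 396 ± 110.6 CPM in sorted vehicle libraries (SD, n = 6 each), and the ranges given above overlapped through sorted E2 replicate 3, at 352 CPM. The log2 fold change of -0.88 ± 0.22 did not pass the test without the block (edgeR adjusted p = 0.077). Without sorted E2 replicate 3 it did (edgeR adjusted p = 0.010). Sorted vehicle replicate 3 was also the highest of its group, at 563 CPM. With the block FOS fell by 0.90 ± 0.17 (edgeR adjusted p = 0.025), and all 6 pairs were lower with E2, with log2 differences from -1.71 to -0.50. That call was kept without replicate number 1 or 6 and lost without number 2, 3, 4 or 5, with an adjusted p of up to 0.074. The difference was -0.68 within replicates 1 to 3 (edgeR adjusted p = 7.9e-08) and -1.11 within replicates 4 to 6 (edgeR adjusted p = 0.17).

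FOSB averaged 22.6 ± 7.41 CPM in sorted E2 and 41.6 ± 17.3 CPM in sorted vehicle libraries. Its log2 fold change was -0.89 ± 0.28 (edgeR adjusted p = 0.23) and with the block -0.90 ± 0.24 (edgeR adjusted p = 0.068), and all 6 pairs were lower with E2. In replicate 6 the pair differed by -1.90 for FOSB and by -1.71 for FOS, the widest of the 6 for both genes. Without replicate number 6, FOSB passed the blocked test (edgeR adjusted p = 9.8e-05) at a smaller difference of -0.63. It also passed within replicates 1 to 3 (-0.67, edgeR adjusted p = 7e-04), and not within replicates 4 to 6 (-1.06, edgeR adjusted p = 0.31).

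JUNB, ATF3 and FOSL2 passed with the block alone. JUNB averaged 47.4 ± 21.5 CPM in sorted E2 and 65.9 ± 28.5 CPM in sorted vehicle libraries, a log2 difference of -0.47 ± 0.32 (edgeR adjusted p = 1) without the block and a fall of 0.46 ± 0.08 with it (edgeR adjusted p = 0.00047). ATF3 averaged 28.5 ± 4.54 CPM in sorted E2 and 39.8 ± 9.13 CPM in sorted vehicle libraries. It differed by -0.48 ± 0.17 (edgeR adjusted p = 0.33) without the block, or with an adjusted p of 0.042 without sorted vehicle replicate 5, and fell by 0.44 ± 0.08 with the block (edgeR adjusted p = 0.00031). JUNB and ATF3 were lower with E2 in all 6 pairs, ATF3 in 1 of them by less than 0.01, and kept their blocked calls when any replicate number was left out. Both passed within replicates 1 to 3. Within replicates 4 to 6 JUNB passed (-0.42, edgeR adjusted p = 0.04), and ATF3 did not (-0.37, edgeR adjusted p = 0.052).

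FOSL2 averaged 34.8 ± 9.65 CPM in sorted E2 and 29.2 ± 10.6 CPM in sorted vehicle libraries. Its log2 difference was 0.26 ± 0.22 (edgeR adjusted p = 1), and with the block it rose by 0.28 ± 0.07 (edgeR adjusted p = 0.01), higher in 5 of 6 pairs. Without replicate number 6 the blocked call was lost (edgeR adjusted p = 0.095). FOSL2 passed in neither depth set alone (edgeR adjusted p = 0.28 in replicates 1 to 3 and 0.11 in replicates 4 to 6). FOSL1 averaged 6.76 ± 2.75 CPM in sorted E2 and 7.21 ± 0.599 CPM in sorted vehicle libraries, a log2 difference of -0.08 ± 0.26 (edgeR adjusted p = 1), with 3 pairs higher and 3 lower.

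Without the block 1 of 7 genes was called, JUN, where 1.37% of genes tested were called (1.11% higher and 0.258% lower). At an unadjusted p under 0.05 there were 4 of 7, where 1024 of the 14334 genes tested were. DESeq2 called 2 of 7, FOS and JUN, where it called 2.57% of genes. With the block 5 of 7 were called, 1 higher and 4 lower, where 13.2% of genes were called (7.03% higher and 6.2% lower). The groups of no member were apart, where 1.54% of genes were. The median over the 7 genes was -0.48 and over all genes tested 0.00, and 6 of the 7 fold changes were negative. Of the markers of other hormone cells, 2 of 9 were lower in the same contrast without the block, and 1 was higher and 3 were lower with it. Of the folliculostellate and stem cell markers, edgeR called 0 of 8 without the block and 2 lower with it, ALDH1A1 (-0.15, edgeR adjusted p = 0.0037) and CDH1 (-0.16, edgeR adjusted p = 0.034). Of the gonadotrope markers 1 of 7 was higher without the block, and 1 was higher and 2 were lower with it. The part of these markers in the AP-1 differences was not tested.

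In unsorted cells, none of the 7 genes was called by edgeR with E2, where 0.245% of genes tested were. None reached an unadjusted p under 0.05, where 425 of the 15083 genes tested did. DESeq2 called none, where it called 0.624% of genes. FOS averaged 27.8 ± 6.24 CPM in unsorted E2 and 22.6 ± 5.74 CPM in unsorted vehicle libraries. The ranges overlapped, and the log2 difference was 0.29 ± 0.19 (edgeR adjusted p = 1). With the block FOS rose by 0.29 ± 0.07 (edgeR adjusted p = 0.012), higher in 5 of 6 pairs, the only member of 7 called with the block, where 5.24% of genes were. That call was lost without replicate number 5 (edgeR adjusted p = 0.064), and it passed within replicates 4 to 6 (0.30, edgeR adjusted p = 0.024) and not within replicates 1 to 3 (0.30, edgeR adjusted p = 0.76).

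JUN averaged 74.1 ± 11.1 CPM in unsorted E2 and 81.1 ± 11.6 CPM in unsorted vehicle libraries, a log2 difference of -0.13 ± 0.12, lower in 5 of 6 pairs. The differences of the other 5 genes ran from -0.07 ± 0.21 for ATF3 to 0.24 ± 0.41 for FOSB, all with an edgeR adjusted p of 1. FOSB rested on 7 to 197 reads in unsorted E2 and 3 to 142 reads in unsorted vehicle libraries, and the 95% interval of its log2 difference ran from -0.56 to 1.03.

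**Figure D3:**
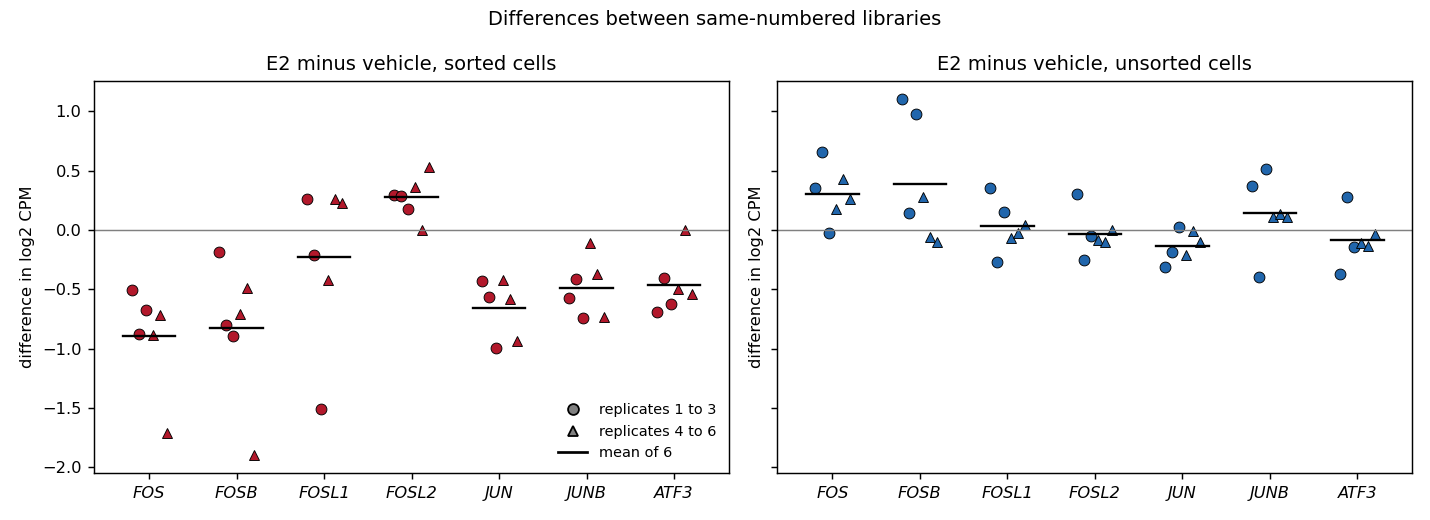
Difference in log2 CPM between E2 and vehicle libraries of the same replicate number, for each AP-1 gene in sorted (left) and unsorted (right) cells; circles are replicates 1 to 3, triangles replicates 4 to 6 and bars the mean of 6 pairs. In sorted cells all pairs of FOS, FOSB, JUN, JUNB and ATF3 lie at or below 0, and in unsorted cells 5 of 6 FOS pairs lie above it.

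The interaction over all 24 libraries tested whether the E2 difference was unequal in sorted and unsorted cells. The same term tests whether the difference between sorted and unsorted cells was unequal under E2 and under vehicle. For FOS the sorted difference was lower than the unsorted one in all 6 replicate numbers, with values from -1.97 to -0.65 on the log2 scale. The fitted interaction was -1.18 ± 0.30 (edgeR adjusted p = 0.40 over all genes). With the replicate number as a block it was -1.23 ± 0.26 (edgeR adjusted p = 0.043), and leaving out any one replicate number ended this call, with adjusted p-values of 0.061 to 0.28. With a block for each number within sorted and within unsorted cells, an alternative chosen after seeing the data, it was -1.20 (edgeR adjusted p = 0.013). Same-numbered libraries correlated at 0.570 to 0.859 within sorted or within unsorted cells and at 0.290 to 0.524 between them. A block shared by sorted and unsorted cells takes up the likeness within each only in part.

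JUN had an interaction of -0.53 ± 0.18 and JUNB of -0.60 ± 0.53, each with an edgeR adjusted p of 1. With the replicate number as a block neither was called (edgeR adjusted p = 0.32 for JUN and 0.053 for JUNB). With the block within sorted and unsorted cells, the alternative chosen after seeing the data, the edgeR adjusted p was 0.0021 for JUN and 0.0063 for JUNB. FOSB had -1.11 ± 0.49, ATF3 -0.41, FOSL1 -0.10 and FOSL2 0.29 without the block, all with an adjusted p of 1. By edgeR 0 of 7 genes were called without a block, where 0.0264% of genes tested were. By the same fit 3 had an unadjusted p under 0.05, where 236 of the 15134 genes tested did. DESeq2 also called 0, where it called 0.0866% of genes. With the block 1 of 7 was called, against 0.463% of genes, and with the block within sorted and unsorted cells 3 of 7, against 2.36% of genes.

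**Figure D4:**
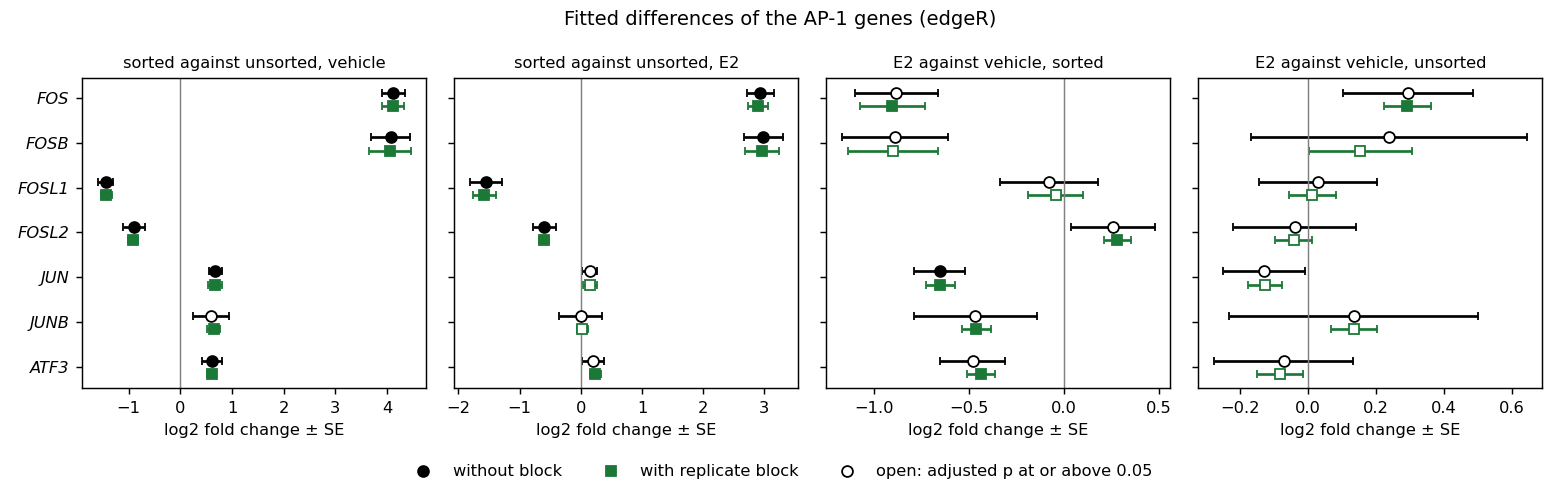
Fitted log2 fold change ± SE of each AP-1 gene in the 4 comparisons of 6 against 6 libraries, without (black circles) and with (green squares) the replicate block; filled symbols have an edgeR adjusted p under 0.05, and each panel has its own horizontal scale. The estimates differ little between the fits. The error bars are narrower with the block for every gene, except for FOSB and JUN between sorted and unsorted vehicle libraries.

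The spread within groups differed by gene, and for JUNB and FOSL2 it followed the depth sets in all 4 groups. Mean log2 CPM of JUNB was higher in replicates 4 to 6 than in 1 to 3 by 1.20 in sorted E2, 1.03 in sorted vehicle, 1.31 in unsorted E2 and 1.36 in unsorted vehicle libraries. FOSL2 showed gaps of 0.68, 0.64, 0.49 and 0.56 in the same 4 groups. For both genes the sets did not overlap in any group. FOSB had the widest gap of any member, 1.47 in unsorted vehicle libraries, where its sets were apart, and JUN had its sets apart in unsorted E2 (0.37) and unsorted vehicle libraries (0.32). FOS showed gaps of -0.36, 0.06, 0.12 and 0.16, with overlapping sets throughout. Over all genes tested, 7.57% to 8.89% had a gap above 1 in a group, counted in either direction. What separates the depth sets other than read number is not given in the labels, and its part in these levels was not tested.

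The genes most like each AP-1 gene across the 24 libraries were ranked among 11013 named genes by the root-mean-square difference of log2 CPM, each gene centred on its own mean. Nearest to FOS was EGR1, another immediate-early transcription factor, at 0.49, followed by FOSB at 0.59 and PCSK1, a prohormone convertase, at 0.62. Nearest to FOSB were FOS at 0.59, EGR1 at 0.62 and RELN at 0.85. FOSL1 had closer neighbours, PTGES, a prostaglandin E synthase, at 0.29, TRIP13 at 0.30 and RHNO1 at 0.33. The nearest gene was NPM3 for FOSL2 (0.18), PNRC1 for JUN (0.19), PANK1 for ATF3 (0.22) and CISH, a suppressor of cytokine signalling, for JUNB (0.29). No other AP-1 gene stood among the 3 nearest of FOSL1, FOSL2, JUN, JUNB or ATF3.

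The genes around AP-1 in its pathway were described from 5 lists. Beside the counts under vehicle stand the shares over all genes tested, 24.4% called higher in sorted cells and 25.8% lower. Under vehicle, 10 of 19 other leucine zipper factors tested were higher in sorted cells and 4 lower, with a median of 0.30. Among them NFIL3, a repressor, rose by 0.88, ATF1 by 0.64, and MAF fell by 2.40. Of 30 upstream kinases and their regulators 8 were higher and 9 lower with a median of 0.02; MAP2K3 fell by 0.83 and MAP2K1 fell by 0.69. Of 14 factors that act on the FOS and JUN promoters 6 were higher and 1 lower with a median of 0.41. MEF2C rose by 0.98 and EP300 by 0.69, and ETS1 fell by 1.76.

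Of 26 genes known as AP-1 targets in other cells, 4 were higher and 18 lower in sorted vehicle cells, with a median of -2.01. FN1, a matrix protein, fell by 2.81, GJA1, a gap junction protein, by 3.04 and TGFB1 by 1.98. The fibroblast and pericyte markers moved with this list, 7 of 10 tested being lower and 1 higher, and their part in it was not tested. Of 28 genes known to rise with tissue dissociation, 9 were higher and 8 lower, with a median of -0.14. EGR1 rose by 4.23, while CYR61 fell by 1.85 and ZFP36L1 fell by 2.65. In the same contrast under E2 the counts were 7 higher and 3 lower for the zipper factors, 8 and 8 for the kinases and 7 and 1 for the promoter factors. They were 4 and 18 for the targets and 8 and 9 for the dissociation genes. Over all genes tested, 24.4% were called higher and 25.8% lower under vehicle, and 25.8% higher and 26% lower under E2.

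**Figure D5:**
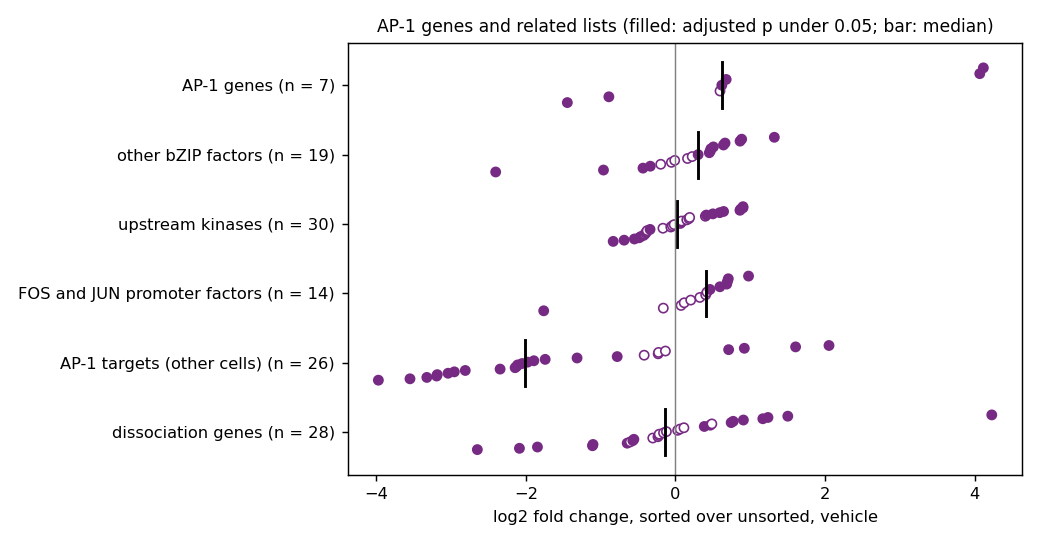
Fitted log2 fold change of sorted over unsorted vehicle libraries for the AP-1 genes and 5 lists of related genes; each point is a gene, filled where the edgeR adjusted p is under 0.05, and bars are medians. FOS and FOSB lie beyond 4 with EGR1 from the dissociation list, and the target list has its median at -2.01.

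With E2 in sorted cells, few of these genes were called, where 1.11% of all genes tested were called higher and 0.258% lower. NFIL3 was the one zipper factor of 19, and it fell by 0.66 (edgeR adjusted p = 0.0067). VEGFA, an angiogenic growth factor, was the one target of 25 and rose by 1.53 ± 0.18 (edgeR adjusted p = 0.00083). It averaged 70.3 CPM in sorted E2, 24.4 CPM in sorted vehicle, 41.7 CPM in unsorted E2 and 32.7 CPM in unsorted vehicle libraries. Of the 28 dissociation genes GADD45B rose by 0.90 (edgeR adjusted p = 0.021) and BTG1 by 0.43 (edgeR adjusted p = 0.042), and none fell. No kinase of 30 and no promoter factor of 14 was called. With the block 1 zipper factor rose and 3 fell, 2 kinases rose and 2 fell, and 1 promoter factor rose and 2 fell. Also with the block, 2 targets rose, and 4 dissociation genes rose and 7 fell. Of all genes tested, the blocked fit called 13.2%, 7.03% higher and 6.2% lower.

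In unsorted cells, edgeR called no gene of the 5 lists with E2 without the block, where 0.245% of all genes tested were called. With the block 2 kinases rose and 1 fell, 1 promoter factor fell, 1 target rose and 2 dissociation genes rose. Of all genes tested, the blocked fit called 5.24%. In the interaction edgeR called none without the block, and with it VEGFA was called at 1.17 (edgeR adjusted p = 0.0019) and NFIL3 at -0.63 (edgeR adjusted p = 0.018). The shares over all genes tested were 0.0264% without the block and 0.463% with it.

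The genes with AP-1 sites in mouse moved unlike each other. GNRHR, the receptor of gonadotropin-releasing hormone, averaged 22.1 CPM in sorted E2, 5.63 CPM in sorted vehicle, 5.07 CPM in unsorted E2 and 0.719 CPM in unsorted vehicle libraries, and rose with E2 in both preparations (edgeR adjusted p = 0.018 in sorted and 0.016 in unsorted cells). FSHB, the follicle-stimulating hormone subunit gene, averaged 83.1 CPM in sorted E2, 147.9 CPM in sorted vehicle, 22.5 CPM in unsorted E2 and 39.7 CPM in unsorted vehicle libraries. It differed by -0.83 with E2 in sorted cells (edgeR adjusted p = 0.60) and with the block fell by 0.84 (edgeR adjusted p = 7.1e-08). In unsorted cells FSHB differed by -0.81, not called, and with the block by -0.82 (edgeR adjusted p = 1.5e-08). Its interaction was -0.02 without the block and was not called.

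The authors' deposited table for the vehicle libraries gives unsorted over sorted, so its signs run the other way: FOS stands there at -4.12 and FOSL1 at 1.46. In the authors' deposited table for E2 in sorted cells, JUN stands at -0.65 (FDR 0.0028), FOS at -0.88 (FDR 0.0046) and FOSB at -0.89 (FDR 0.086). In the authors' deposited table for E2 in unsorted cells, all 7 genes have an FDR of 1.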

How the data were processed

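RNA from primary sheep pituitary cultures was sequenced after a TruSeq preparation from 500 ng of total RNA, per the labels. The deposited counts are whole reads per gene, made by the authors with featureCounts 1.5.1, per the submitters' processing notes. Which aligner, build and strand option were used is not given in the sources used here. Reads of overlapping or antisense genes therefore cannot be separated, and coordinates are left out. The log2 fold changes, p-values and signed fold score of the authors' deposited tables are, per the file headers, from edgeR, and were only set beside the fits. The 12 vehicle libraries stand in 2 count tables, and 0 values differed between copies. The sorted and unsorted E2 comparisons, and the contrasts between preparations, share libraries, so their values are given side by side.

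Comparisons were fitted with edgeR 4.0.16 in R 4.3.3 on all genes: filterByExpr, TMM, robust glmQLFit and the 2-sided quasi-likelihood F-test, with Benjamini-Hochberg adjustment. SE was obtained by dividing the log2 fold change by the root of its F value, and CPM used TMM-scaled libraries. The interaction used all 24 libraries. The fits were also run on simulated counts with an equal dispersion for all genes and no replicate effect. That run cannot judge the gain from the block or the E2 calls. Genes named are the 7 members, the 3 nearest genes of each, up to 3 genes with the smallest p per list and comparison (a gene this rule names may be not reported here), and FSHB, LHB, CGA, GNRHR and ESR1. The members and lists were chosen with earlier results of these data known. Replicate numbers pair the libraries: deviations from group means correlated at 0.290 to 0.859 between same-numbered libraries, and in 36 of 36 cases a library matched its own number best. The labels do not say what the numbers stand for. Alternatives were RLE size factors, no filter, DESeq2 1.42.0, the replicate block, each library left out, each depth set alone with the block and 1 fit over all libraries. No scaling factors, the block within each preparation and leaving out whole replicate numbers were added after seeing the data. Reads without molecular identifiers are not separate molecules, so precision was taken from the replicate spread, which includes counting error where reads are few.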

Additional observations from a re-analysis of the deposited data

Results flagged for a closer look

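FOS in sorted E2 replicate 3 stood at 352 CPM, apart from the other 5 sorted E2 libraries by more than Dixon's 95% limit. Sorted vehicle replicate 3 was likewise the highest of its group, at 563 CPM. The log2 difference of that pair was -0.68, inside the range of the other pairs. Of 28 sets of 6 libraries (7 genes in 4 groups), this was the one set beyond that limit, and chance flags about 1 in 20 sets.

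The E2 difference of FOS was lower in sorted than in unsorted cells by 1.23 on the log2 scale (-1.23, edgeR adjusted p = 0.043) with the replicate block, a call lost when any one replicate number was left out (adjusted p of 0.061 to 0.28), and by 1.20 (-1.20, edgeR adjusted p = 0.013) with the block within each preparation. The same difference was -0.53 for JUN (edgeR adjusted p = 0.0021) and -0.60 for JUNB (edgeR adjusted p = 0.0063) with the block within each preparation, a fit chosen after seeing the data. With the plain replicate block JUN (edgeR adjusted p = 0.32) and JUNB (edgeR adjusted p = 0.053) did not pass, and none of the 3 genes passed without a block.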

How the results depend on the processing

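Of 909 fold changes of the 7 genes under the alternatives, 817 kept their direction and side of the threshold, 50 passed it anew, 8 no longer passed (JUN with E2 in sorted cells, a library left out) and 34 changed sign, none of them a called value. The fits of replicates 1 to 3 or 4 to 6 alone also carry the replicate block, so their counts compare with the blocked count and not with the unblocked one. In the sorted against unsorted comparisons no count moved by over 1.5 times. For E2 in sorted cells the 196 genes called became 1896 with the replicate block (563 in replicates 1 to 3 and 1277 in replicates 4 to 6), 399 by DESeq2, 125 to 208 with a library left out, and 1361 to 1893 with a replicate number left out of the block. The 1 AP-1 gene called became 5 with the block and 2 by DESeq2. It became 0 to 2 with a library left out and 4 to 5 with a number left out of the block. Replicates 1 to 3 alone gave 5, with FOSB in place of FOSL2, and replicates 4 to 6 alone gave 2. The fit over all 24 libraries called 2 AP-1 genes, and its count over all genes stayed within 1.5 times of 196. For E2 in unsorted cells the 37 genes called became 790 with the block (67 in replicates 1 to 3 and 730 in replicates 4 to 6), 122 by DESeq2, 73 in the fit over all 24, 11 to 48 with a library left out and 451 to 822 with a number left out of the block. The 0 AP-1 genes became 1 with the block (also 1 in replicates 4 to 6) and 0 to 1 with a number left out of the block. In the interaction the 4 genes called became 70 with the block (2 in replicates 1 to 3 and 47 in replicates 4 to 6), 357 with the block within each preparation, 16 by DESeq2, 0 without the filter, 0 to 4 with a library left out and 22 to 58 with a number left out of the block. There the 0 AP-1 genes became 1 with the block, 3 with the block within each preparation and 0 to 1 with a number left out. The block moved no other call than those printed beside the results. Signs changed as follows. FOSL1 with E2 in sorted cells was 0.038 in replicates 4 to 6, -0.19 to 0.089 with a library left out and -0.15 to 0.080 with a number left out of the block. In unsorted cells FOSL1 was -0.0056 in replicates 4 to 6, -0.081 to 0.15 with a library left out and -0.021 to 0.06 with a number left out. With a library left out there, FOSB ran from -0.11 to 0.56, FOSL2 from -0.13 to 0.061, JUNB from -0.068 to 0.35 and ATF3 from -0.16 to 0.031. Between sorted and unsorted E2 cells JUNB was 0.0054 without scaling factors, 0.023 with the block, 0.091 in replicates 1 to 3, 0.0067 in the fit over all 24 and -0.20 to 0.18 with a library left out, and JUN was -0.041 in replicates 4 to 6. The FOSL1 interaction was 0.0087 in replicates 4 to 6 and -0.22 to 0.048 with a library left out. The causes of these changes were not tested. FOSB in unsorted replicates 1 to 3 had too few reads for a fit of that set. Low read numbers of FOSB in unsorted cells and of FOSL1 in sorted cells limit both genes.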
